A study of Phalaenopsis x intermedia with 4 samples.

Results

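The F1 progeny of P. Intermedia, a cross of Phalaenopsis equestris (Pe) with P. aphrodite (Pa), were divided by their genotype at S5_10776122, a single nucleotide polymorphism (SNP) on chromosome 5. The members were chosen by the letter of that call: K stands for a heterozygote with the alleles G and T, and G for a homozygote. Of the 90 progeny in the table, 46 were K and 44 were G, and 0 had no call. The label of the table says that calls were imputed from nearest neighbors, so some of these calls may be imputed. Pe itself was called K and Pa was called G. The study picked this SNP because it was associated with the yellow color of the lip in the F1 population of this cross, which the study describes as larger than the 90 progeny of the table, and S5_23606179, S5_24984925 and S9_14147427 were picked for the same trait, so that their likeness to the grouping SNP is no independent evidence.

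K and G plants came from the same cross, and no label other than this call separates them. Leaf DNA was cut with Hinp1I or ApeK1, each with HaeIII, and sequenced in 4 libraries, on 2 plates for each enzyme pair, by genotyping by sequencing (GBS), in which the same small part of the genome next to restriction sites is read in many plants. The table holds 1 genotype per plant and SNP with both enzyme pairs merged, for 92 columns of plants. Read counts are not part of it, which leaves the depth of a call unknown, and each plant is 1 column with no repeat.

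The lip is the modified petal of an orchid flower. Its yellow comes in many flowers from carotenoids, held in plastids, or from some flavonoids, which share a pathway with the magenta anthocyanins. In a cross of outbred parents, each parent passes on 1 of its 2 chromosomes at every locus. An allele carried once by Pe and not at all by Pa is therefore expected in a part of the progeny as heterozygotes, and the neighbors of a SNP of this kind on the same Pe chromosome are inherited with it until a crossover separates them.

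The question was which other SNPs had a different allele dosage (0, 1 or 2 copies of the minor allele) in K than in G plants, how far along chromosome 5 they lay, and whether any lay on other chromosomes. Of 115866 entries in the table, 113517 were SNPs with 2 base alleles on chromosomes 1 to 19, and 7643 of these other than the grouping SNP had a missing call in at most 20% of the columns. At this limit, 450 SNPs with 18 missing columns (19.6%) lay just inside and 413 SNPs with 19 (20.7%) just outside. SNPs at most 1 kb apart may lie on the same sequenced fragment and are called a place here.

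At 44 of the 7643 SNPs, in 23 places, the mean dosage differed between K and G plants with an adjusted p under 0.05 (exact two-sided permutation test, Benjamini-Hochberg over all tested SNPs), which is 0.576%. Chromosome 5 held 30 of the 44, in 16 places. The remaining 14 lay in 7 places on chromosomes 2, 9 and 10, which is 0.198% of the 7053 SNPs tested outside chromosome 5. Of these, chromosome 2 had 9 in 5 places, chromosome 9 had 3 in 1 place and chromosome 10 had 2 in 1 place. On the other 15 chromosomes 0 SNPs passed, and the lowest adjusted values there were 0.065 on chromosome 17 and 0.0664 on chromosome 14 by the exact permutation test. Without adjustment, 439 SNPs (5.74%) had an exact permutation p under 0.05. The minor allele was more frequent in K plants at 22 of the 44 SNPs and more frequent in G plants at the other 22. The absolute difference in mean dosage had a median of 0.694 copies over the 44 SNPs and 0.111 copies over all tested SNPs.

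**Figure D1:**
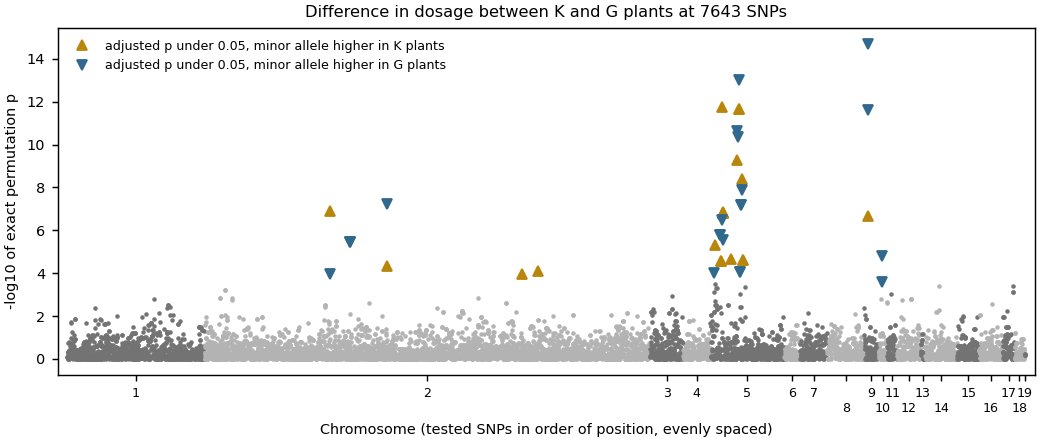
Each point is 1 of 7643 tested SNPs, in order of position along chromosomes 1 to 19 (x axis), with -log10 of its exact permutation p for K against G plants (y axis). Triangles that point up (gold) and down (blue) mark the 44 SNPs with an adjusted p under 0.05 and a minor allele higher in K or in G plants; 30 stand on chromosome 5 and the SNP with the lowest p on chromosome 9.

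The SNPs read beside the grouping SNP did not differ detectably between K and G plants. Only 3 other SNPs within 1 kb were tested, and 0 passed (exact permutation p = 0.37, 1 and 1). S5_10776110, 12 bp before the grouping SNP, where Pa was called G and Pe was called T, was heterozygous in 46 of 46 K plants and in 40 of 44 G plants. S5_10776272, where Pa was called T and Pe was called G, had 22 major homozygotes, 12 heterozygotes and 7 minor homozygotes in K plants, against 22, 11 and 7 in G plants. S5_10776279 gave the same counts as S5_10776272. The largest difference among the 3 was 0.0455 copies, and 0 SNPs were tested between 0.001 and 0.05 Mb from the grouping SNP. At all 3 the parents were called as opposite homozygotes. Every F1 plant of such a cross inherits both alleles, so the homozygotes at S5_10776272 and S5_10776279, and the 3 major homozygotes and 1 minor homozygote among G plants at S5_10776110, depart from the parents' calls. By the parents' calls, no difference between the groups could arise at these 3 SNPs. SNPs of the same parent class did differ elsewhere, S5_11165659 and S5_23606179 among them.

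On chromosome 5 the SNPs that differed ran from S5_3982960 to S5_25010091, a span of 21.03 Mb that reached 6.793 Mb before the grouping SNP and 14.23 Mb after it. Within this span 229 SNPs were tested and 30 passed (13.1%). Of the 330 SNPs tested beyond it, up to position 49314560, 0 passed. The span was not filled evenly. Between 10 and 12 Mb 13 of 29 SNPs passed, in 5 of 11 places, and between 23 and 26 Mb 14 of 69 passed, in 8 of 25 places. Between 12 and 23 Mb only S5_18314588 passed, of 104 SNPs tested. Between 5 and 10 Mb 0 of 20 passed, and up to 5 Mb 2 of 55 did. These segments were drawn after the positions of the passing SNPs had been seen and are a description.

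Most of the SNPs that differed were heterozygous in Pe. Over all tested SNPs, 32 of the 1786 SNPs at which Pe was heterozygous and Pa homozygous passed (1.79%), against 0 of 1145 at which Pa was heterozygous and Pe homozygous. The grouping SNP is itself of the first class, so this contrast is tied to its choice and is a description. On chromosome 5, the Pe-heterozygous SNPs passed in 5 of 5 cases (3 of 3 places) between 10 and 12 Mb. Between 23 and 26 Mb they passed in 13 of 15 cases (7 of 9 places). In the interval of 12 to 23 Mb that lies between these, the same class passed in 1 of 26 cases (1 of 16 places). Beyond 26 Mb it passed in 0 of 76 (0 of 46 places), and up to 5 Mb in 2 of 21 (2 of 10 places). The absolute differences of this class had a median of 0.882 copies between 10 and 12 Mb, 0.709 between 23 and 26 Mb, 0.17 between 12 and 23 Mb and 0.116 beyond 26 Mb. A further 10 passing SNPs were called as different homozygotes in the parents, of 3386 such SNPs, and 8 of these lay in 3 places between 10 and 12 Mb of chromosome 5. Pa was homozygous at 43 of the 44 passing SNPs.

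**Figure D2:**
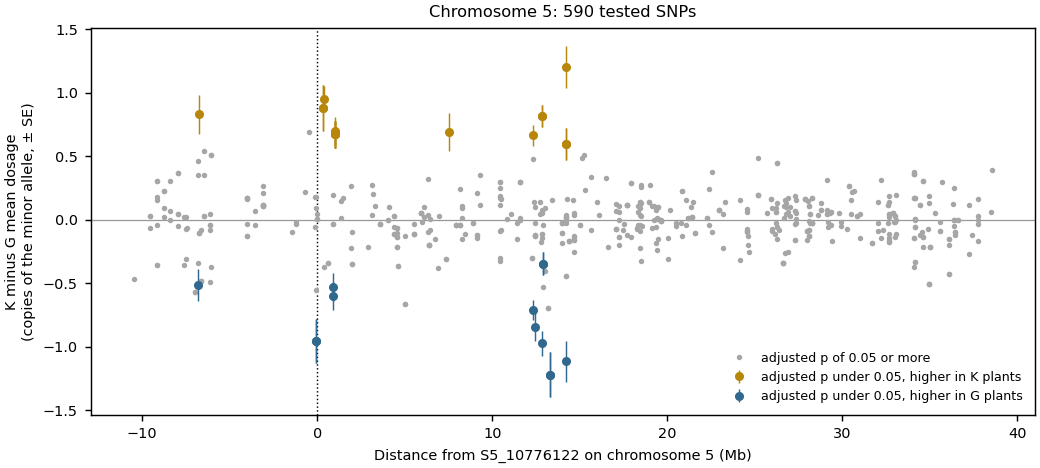
Difference in mean dosage between K and G plants (y axis, copies of the minor allele, K minus G) at the 590 tested SNPs of chromosome 5 against the distance from the grouping SNP (x axis, Mb). Gold and blue points with bars (standard error) mark the 30 SNPs with an adjusted p under 0.05, higher in K or in G plants; they stand near the grouping SNP and 12.3 to 14.23 Mb after it, with few points between.

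Close to the grouping SNP, S5_11165659, 0.3895 Mb after it, separated the groups most. Its minor allele C, for which Pe was called homozygous, was present in 39 of 44 K plants and in 4 of 34 G plants. K plants had 5 major homozygotes, 31 heterozygotes and 8 minor homozygotes, against 30, 4 and 0 in G plants. The mean dosage was 1.07 ± 0.545 copies in K plants (SD, n = 44) and 0.118 ± 0.327 copies in G plants (SD, n = 34; exact permutation p = 1.68e-12, adjusted p = 3.05e-09). At S5_11794726, 1.019 Mb after the grouping SNP, K plants had 10 major homozygotes, 27 heterozygotes and 5 minor homozygotes, against 31, 7 and 0 in G plants. All 6 tested SNPs of its place passed. At S5_11701300 the minor allele A marked the G plants, with 38 major homozygotes, 1 heterozygote and 0 minor homozygotes in K plants, against 19, 17 and 4 in G plants. At S5_11165659, S5_11794726 and S5_11701300 the parents were called as opposite homozygotes, so the homozygotes of both groups depart from the parents' calls.

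The nearest tested SNPs over 1 kb away on either side of the grouping SNP gave different answers. S5_10677653, the nearest before it, had 32 major homozygotes, 0 heterozygotes and 11 minor homozygotes in K plants, against 33, 2 and 8 in G plants (exact permutation p = 0.699). S5_10677300, in the same place, had 35, 0 and 3 in K plants, against 13, 7 and 17 in G plants (exact permutation p = 1.58e-06, adjusted p = 0.000484). Pe was heterozygous and Pa homozygous for the major allele at S5_10677300, which allows no minor homozygotes. At S5_10677653 both parents were called homozygous for the major allele A. After the grouping SNP, S5_11083973 had 20 major homozygotes, 0 heterozygotes and 20 minor homozygotes in K plants, against 32, 0 and 2 in G plants (exact permutation p = 2.78e-05, adjusted p = 0.0059). A cross of the heterozygous Pe with the homozygous Pa allows heterozygotes and no minor homozygotes at S5_11083973, so that the letters deposited there depart from the cross in both groups.

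The segment near 23 Mb held the chromosome 5 SNP with the lowest p. S5_23606179, 12.83 Mb after the grouping SNP, had 38 major homozygotes (A), 0 heterozygotes and 1 minor homozygote (T) in K plants, against 6, 29 and 7 in G plants. Its mean dosage was 0.0513 ± 0.320 copies in K plants (SD, n = 39) and 1.02 ± 0.563 copies in G plants (SD, n = 42; exact permutation p = 9.83e-14, adjusted p = 3.75e-10). S5_23634288, the next place, had its minor allele in the opposite group, with 6 major homozygotes, 36 heterozygotes and 3 minor homozygotes in K plants, against 39, 3 and 1 in G plants. S5_23234801 had 41, 5 and 0 in K plants, against 10, 25 and 8 in G plants. S5_24051937 had, together with S5_24051963 in the same place, the largest difference among the 44 SNPs, with 33, 0 and 3 in K plants, against 12, 0 and 27 in G plants (-1.22 ± 0.177 copies, SE, K minus G). At S5_24984925 K plants had 37, 2 and 5, against 10, 7 and 27 in G plants. The parents were called as opposite homozygotes at S5_23606179, so the homozygotes there depart from the parents' calls. At S5_24051937 Pa was called T and Pe heterozygous, which allows no homozygotes for the major allele A. Pe was heterozygous and Pa homozygous for the major allele at S5_23634288, S5_23234801 and S5_24984925, which allows no minor homozygotes.

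The SNPs at the ends of the span also carried both alleles in each group. At S5_3982960 K plants had 32 major homozygotes, 13 heterozygotes and 1 minor homozygote, against 13, 25 and 6 in G plants (exact permutation p = 9.62e-05, adjusted p = 0.0179). At S5_25010091 K plants had 13, 25 and 5, against 34, 5 and 2 in G plants (exact permutation p = 2.38e-05, adjusted p = 0.00534). S5_18314588, alone in the middle of the span, had 22, 5 and 12 in K plants, against 35, 2 and 0 in G plants. Within 1 Mb of it 17 other SNPs were tested, 5 of them heterozygous in Pe and homozygous in Pa, and 0 passed. Pe was heterozygous and Pa homozygous for the major allele at S5_3982960, S5_25010091 and S5_18314588, which allows no minor homozygotes.

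**Figure D3:**
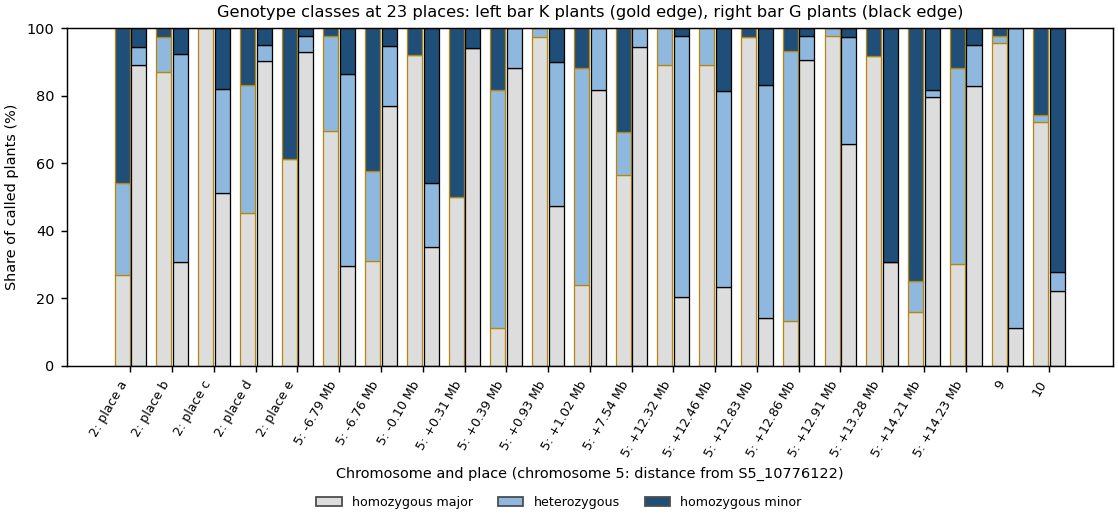
Genotype classes (y axis, percent of called plants) at 1 SNP of lowest p in each of 23 places, with K plants in the left bar (gold edge) and G plants in the right bar (black edge) of each pair. Places on chromosome 5 are named by their distance from the grouping SNP in Mb and the 5 places on chromosome 2 run from a to e by position; the chromosome 9 place has 44 of 46 K plants and 5 of 44 G plants in the major homozygous class.

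Neighboring SNPs also pointed in opposite directions. In 5 places, 1 passing SNP had its minor allele higher in K plants and another had it higher in G plants. S5_23097557 and S5_23097599, 42 bp apart and both heterozygous in Pe, are an example. Of 46 K plants, 41 carried the minor allele of S5_23097557 alone, 5 that of S5_23097599 alone, and 0 carried both. Of 44 G plants, 8 carried that of S5_23097557 alone, 34 that of S5_23097599 alone, 1 both and 1 neither. In the same way, at S5_24984893 and S5_24984925, 32 bp apart, 37 of 43 K plants carried the minor allele of S5_24984893 alone and 6 that of S5_24984925 alone, whereas 9 of 44 G plants carried that of S5_24984893 alone and 34 that of S5_24984925 alone. In the chromosome 9 place, S9_14147534 and S9_14147427 lay 107 bp apart, and 33 of 43 K plants carried the minor allele of S9_14147534 alone, against 3 of 38 G plants. The minor allele of S9_14147427 alone was carried by 2 of the same K plants and by 33 of the same G plants.

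Plants were then counted as discordant where their state at a SNP (with or without the minor allele) was the state more common in the other group. Since the 44 SNPs were selected for a difference between these groups, low discordance with the grouping SNP is a description of the selected SNPs. It ran between 7.78% and 34.5% over the 44 SNPs, with a median of 21.3%. On chromosome 5 the lowest value was at S5_23606179, with 7 of 81 plants (8.64%, 95% Wilson interval 4.25 to 16.8%), followed by S5_23634288 with 10 of 88 (11.4%) and S5_11165659 with 9 of 78 (11.5%). S5_10677300, which lies closer to the grouping SNP, was discordant in 16 of 75 plants (21.3%), and S5_11083973 in 22 of 74 (29.7%, 20.5 to 40.9%). Discordance thus did not grow steadily with distance. The intervals cover counting error only. Which calls were imputed is unknown, so the share of imputation in the likeness between SNPs was not tested.

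Summed over the passing places, most plants showed the state more common in their own group (the own type) in both segments. These places were selected for a difference between the groups, and the types are defined by the same groups. The counts are therefore a description. In the 5 places between 10 and 12 Mb, the majority of calls was of the own type in 41 of 46 K plants and in 37 of 44 G plants. It was of the other type in 2 K plants (PaPe38 and PaPe56) and 7 G plants, and tied in 3 K plants and 0 G plants. In the 8 places between 23 and 26 Mb, it was of the own type in 45 of 46 K plants and in 38 of 44 G plants. The other type prevailed there in 1 K plant (PaPe75) and in 4 G plants (PaPe5, PaPe84, PaPe93 and PaPe96), and 2 G plants were tied. The majority between 23 and 26 Mb disagreed with the grouping SNP in 5 of 88 plants (5.68%), and that between 10 and 12 Mb in 9 of 87 (10.3%).

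**Figure D4:**
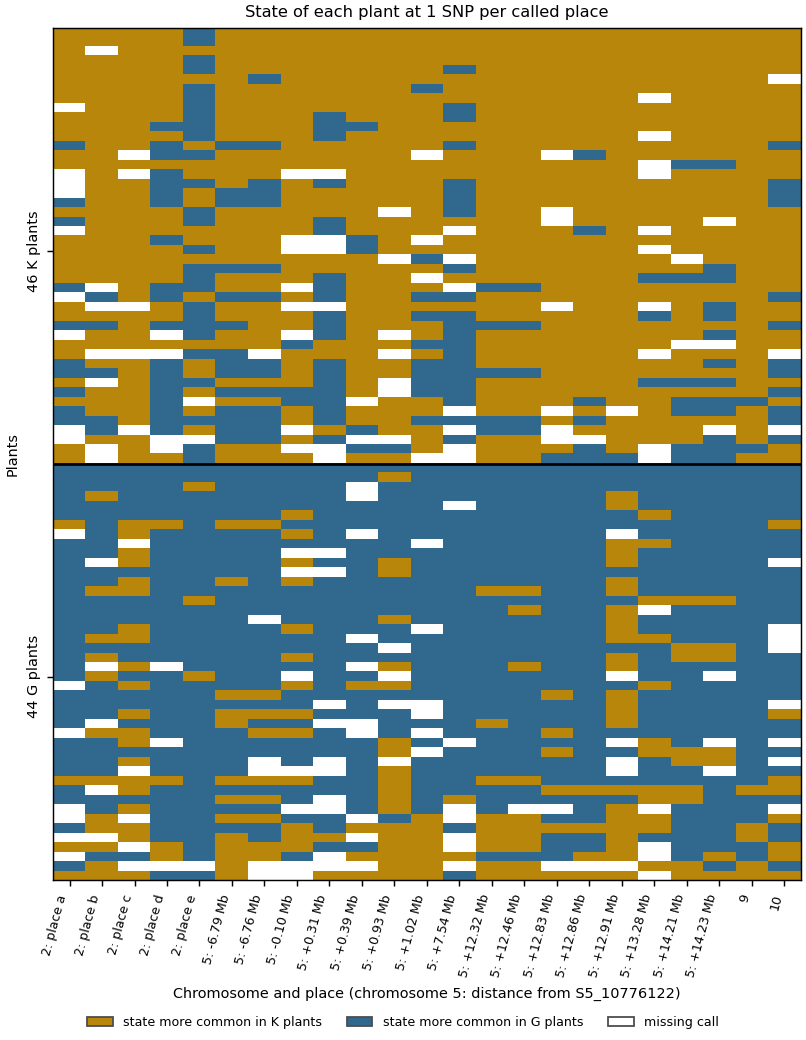
State of each of 46 K plants (above the line) and 44 G plants (below it) at 1 SNP in each of 23 places (x axis, chromosome and place), gold for the state more common in K plants, blue for the state more common in G plants and white for a missing call. Within each group plants are sorted by the share of chromosome 5 places in their own group's state; the chromosome 9 column follows the groups in all but 7 of 90 plants.

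The SNP with the lowest p of the whole scan was not on chromosome 5. S9_14147427 on chromosome 9 was called C in Pa and as a C/T heterozygote in Pe. K plants had 44 major homozygotes, 1 heterozygote and 1 minor homozygote, against 5, 39 and 0 in G plants. The mean dosage was 0.0652 ± 0.327 copies in K plants (SD, n = 46) and 0.886 ± 0.321 copies in G plants (SD, n = 44), a difference of -0.821 ± 0.0683 copies (SE, K minus G; exact permutation p = 2.04e-15, adjusted p = 1.56e-11). In all, 7 of 90 plants were discordant (7.78%, 95% Wilson interval 3.82 to 15.2%), which overlaps the interval of S5_23606179. Of the 5 SNPs tested in its place 3 passed, and of the 10 other SNPs tested within 1 Mb 0 did (lowest exact permutation p = 0.0947). Only 4 of these 10 were heterozygous in Pe and homozygous in Pa. By state, S9_14147427 was discordant from S5_23634288 in 6 of 88 plants, from S5_23606179 in 7 of 81 and from S5_11165659 in 7 of 78. It disagreed with the majority of the places between 23 and 26 Mb in 4 of 88 plants (4.55%, 95% Wilson interval 1.78 to 11.1%). Of the 7 plants in which it disagreed with the grouping SNP, the majority between 10 and 12 Mb followed S9_14147427 in 5 of the 6 plants that had a majority, and that between 23 and 26 Mb followed S9_14147427 in 4 of the 7 and the grouping SNP in 3. At every other place outside chromosome 5, both majorities followed the grouping SNP in most of the discordant plants. For that between 10 and 12 Mb these were 11 of 14 plants at S2_65368894 and 28 of 29 at S2_175076247. With heterozygous calls left out, the difference at S9_14147427 did not pass (0.0444 copies), since all 39 G plants with its minor allele were heterozygous.

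Chromosome 2 held 5 separate places. S2_99681021 had the lowest p of these, with 41 major homozygotes, 0 heterozygotes and 0 minor homozygotes in K plants, against 20, 12 and 7 in G plants (exact permutation p = 5.95e-08, adjusted p = 3.55e-05). At S2_65368894 K plants had 10, 10 and 17, against 33, 2 and 2 in G plants (exact permutation p = 1.21e-07, adjusted p = 5.54e-05). At S2_77482975 K plants had 34, 4 and 1, against 12, 24 and 3 in G plants (exact permutation p = 3.37e-06, adjusted p = 0.000888). Pe was heterozygous and Pa homozygous for the major allele at these 3 SNPs, which allows no minor homozygotes in the cross. S2_168618816, of the same parent class, had 19, 16 and 7 in K plants, against 37, 2 and 2 in G plants. S2_175076247 had 27, 0 and 17 in K plants, against 40, 2 and 1 in G plants, although both parents were called homozygous for the major allele T. S10_11716621 on chromosome 10 had 31, 1 and 11 in K plants, against 8, 2 and 26 in G plants (exact permutation p = 1.54e-05, adjusted p = 0.0038), and Pa had no call. In the well-called plants alone (31 K and 29 G), S2_99681021 and S9_14147427 still passed (adjusted exact permutation p = 0.0432 and 1.26e-08). There S2_65368894 (0.151), S2_77482975 (0.0505), S2_168618816 (0.569), S2_175076247 (0.236) and S10_11716621 (0.427, all adjusted exact permutation p) did not pass, with differences of the same sign. With Bonferroni adjustment no SNP of chromosome 10 passed.

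The 7 places outside chromosome 5 had no other passing SNP near them. Within 1 Mb of each, between 10 and 62 other SNPs were tested and 0 passed. Only between 4 and 12 of these were heterozygous in Pe and homozygous in Pa, as the grouping SNP is. Several of the 7 places were discordant in fewer plants from a distant place of chromosome 5 than from the grouping SNP. In each case the chromosome 5 place was picked as the closest of 16, which favors a lower value than at a fixed SNP. S2_77482975 and S5_23097599 were discordant in 6 of 78 plants (7.69%), whereas S2_77482975 and the grouping SNP were discordant in 17 of 78 (21.8%). S10_11716621 and S5_4011861 were discordant in 6 of 75 plants (8%), against 20 of 79 (25.3%) between S10_11716621 and the grouping SNP. S2_65368894 was discordant from S5_4011861 in 8 of 68 plants (11.8%), and from S10_11716621, on another chromosome, in 4 of 65 (6.15%, 95% Wilson interval 2.42 to 14.8%). S2_168618816 and S2_65368894, which lie far apart on the same chromosome, were discordant in 7 of 69 (10.1%). S2_77482975 and S2_99681021 lie between them and were discordant from S2_65368894 in 14 of 63 (22.2%) and 22 of 67 (32.8%). S2_168618816 and S2_175076247, which lie closer together, were discordant in 35 of 82 (42.7%). S2_175076247 had no close match, and its nearest place, S5_11083973, was discordant in 22 of 72 plants (30.6%). From the majorities between 10 and 12 Mb and between 23 and 26 Mb, S2_65368894 was discordant in 19.7% and 23.3% of plants. The grouping SNP gave 18.9% for S2_65368894. For S2_77482975 the majorities gave 21.1% and 17.1%, and for S10_11716621 they gave 27.6% and 26%. All pairs share the same plants and were selected against the same groups, and no test of their likeness was made.

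**Figure D5:**
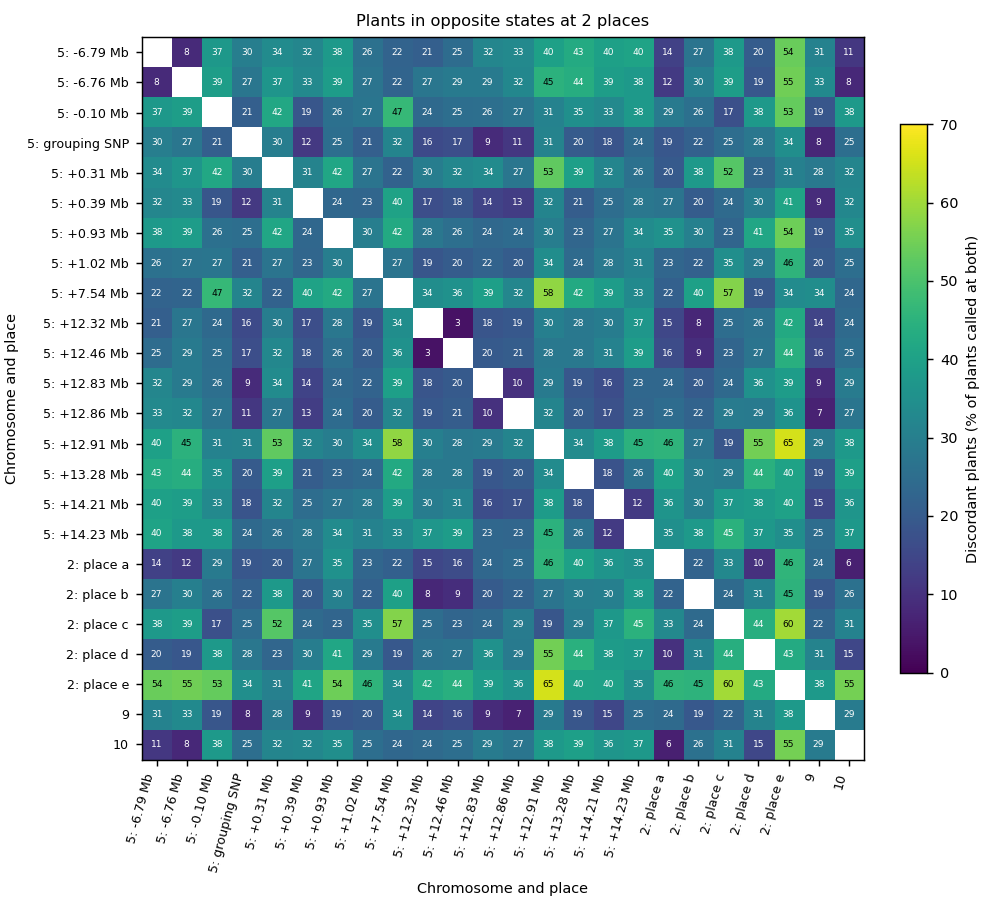
Percent of plants in opposite states (color and printed value) for each pair of places, among plants called at both; the axes list the 16 places of chromosome 5 with the grouping SNP by distance in Mb, then chromosome 2 (places a to e), 9 and 10. Dark cells off the diagonal link the chromosome 9 place with the grouping SNP (7.78%), place b of chromosome 2 with the place 12.32 Mb after the grouping SNP (7.69%), and chromosome 10 with place a of chromosome 2 (6.15%).

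None of the 6 SNPs that the study associated with magenta color passed the test between K and G plants. S2_195281745 had 25 major homozygotes, 0 heterozygotes and 21 minor homozygotes in K plants, against 25, 0 and 18 in G plants. On the far part of chromosome 5, S5_43867748 had 22, 0 and 22 in K plants, against 19, 0 and 19 in G plants. The largest of the 6 differences was at S5_46455357 (0.298 ± 0.220 copies, SE, K minus G; exact permutation p = 0.191). S5_43813578, S5_45345022 and S5_45647571 differed by 0.027, -0.0976 and -0.0703 copies. By the parents' calls, no difference could arise at S5_43867748 (Pa T, Pe A) or at S5_46455357 (C in both), and Pa had no call at S5_45345022. At S2_195281745 Pa was called C and Pe heterozygous, which allows no homozygotes for the major allele G. Such calls limit what the lack of a difference can show about these loci.

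Among SNPs below the threshold, S14_6782296 had 25 major homozygotes, 0 heterozygotes and 21 minor homozygotes in K plants, against 39, 0 and 5 in G plants (exact permutation p = 0.000409, adjusted p = 0.0664). S17_8982580 had 30, 0 and 16 in K plants, against 42, 0 and 2 in G plants (exact permutation p = 0.000391, adjusted p = 0.065). Neither had a heterozygote in either group, although the parents were called as opposite homozygotes at both. Every F1 plant of such a cross inherits both alleles, so all these homozygotes depart from the parents' calls. S2_15283657 on chromosome 2 had 12, 12 and 18 in K plants, against 25, 11 and 5 in G plants, and did not pass either (adjusted p = 0.085, exact permutation test). Pe was heterozygous and Pa homozygous for the major allele there, which allows no minor homozygotes.

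No measure of how completely the plants were called differed between the groups by a test over plants. Over the tested SNPs, K plants had between 0.615% and 27.0% of calls missing with a median of 4.60%, and G plants between 0.340% and 50.4% with a median of 6.08% (permutation p = 0.39, adjusted p = 1). Heterozygous calls made up 24.2 ± 4.30% in K plants and 23.7 ± 5.57% in G plants (SD, n = 46 and n = 44; permutation p = 0.592, adjusted p = 1). Over all SNPs, 15 K plants and 15 G plants had over 50% of calls missing. In the 31 K and 29 G plants with more calls, 22 SNPs passed, all among the 44, and the span on chromosome 5 shrank to 13.82 Mb. On chromosome 5, S5_3982960 (0.501), S5_10677300 (0.24), S5_11083973 (0.113), S5_11794726 (0.0723) and S5_25010091 (0.0566, all adjusted exact permutation p) did not pass there, with differences of the same sign. The difference at the named SNPs did not itself differ between plants with many and with few calls in any case (lowest permutation p = 0.0183, adjusted p = 0.339, at S2_65368894).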

How the data were processed

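GBS libraries of leaf DNA were made from F1 progeny and both parents, of which the table analysed here holds 90 progeny, Pa and Pe, with Hinp1I or ApeK1, each with HaeIII. The authors aligned the reads with Bowtie 2 and called SNPs with TASSEL-GBS. No genome build is named in these sources. Values in the deposited table are genotype letters, 1 per plant and SNP, with both enzyme pairs merged, and carry no scale of measurement. Per the label of that deposited table, calls were imputed from nearest neighbors and SNPs kept above a minor allele frequency of 0.05, and which calls were imputed is unknown.

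Heterozygous letters were read as dosage 1, homozygotes as 0 or 2 copies of the less frequent allele, and missing calls were left out. The difference in mean dosage, K minus G, was tested at each SNP by an exact two-sided permutation test over plants, from the hypergeometric distribution of the genotype classes, with Benjamini-Hochberg adjustment over 7643 SNPs and a threshold of 0.05. Parents were left out. With 1 column per plant, p-values rest on the spread between plants. Measures per plant, and the difference between plants with few and many calls (limit 50% missing), were tested with 100000 permutations and adjusted over their family. Wilson intervals are of 95%. The scan was run on simulated SNPs of dosage 0 or 1, each drawn separately and with calls missing at random. This check did not cover imputed calls, minor homozygotes or SNPs linked within a place.

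Named SNPs were the grouping SNP, the other 9 SNPs that the study associated with flower color, the nearest tested SNP over 1 kb away on each side, the ends of the span on chromosome 5, and the SNPs or places of lowest p, 10 on chromosome 5 and 10 outside it. Other passing SNPs are named where they share a place with these or stand behind a count, after their values were seen. The members, segments and lists were chosen with earlier results of these data known. Alternatives concerned missing calls, allele frequency, heterozygous calls, the test, the adjustment, the plants used and SNP density. No phenotype and no gene annotation was used here. The tools were Python 3.11.15, numpy 2.4.6, scipy 1.17.1, pandas 2.3.3 and matplotlib 3.10.9.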

Additional observations from a re-analysis of the deposited data

Results flagged for a closer look

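Entries labelled chromosome 20 were outside the scan, and a signal appeared there. Of 537 SNPs tested with this label, 1 passed after adjustment within the set by the exact permutation test, and 27 had an unadjusted p under 0.05 (5.03%). S20_103142466 had 34 major homozygotes (T), 0 heterozygotes and 2 minor homozygotes (G) in K plants, against 11, 14 and 13 in G plants. Its mean dosage was 0.111 copies in K plants and 1.05 copies in G plants, a difference of -0.9415 ± 0.152 copies (SE, K minus G; exact permutation p = 1.53e-07, adjusted p = 8.24e-05). It was discordant from S5_23606179 in 12 of 70 plants (17.1%), from S9_14147427 in 13 of 74 (17.6%) and from the grouping SNP in 13 of 74 (17.6%). Where the sequences under this label lie in the genome was not tested. Among 120 further entries with an insertion, a deletion or over 2 alleles, 0 passed and 4 had an unadjusted exact permutation p under 0.05.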

How the results depend on the processing

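The 44 SNPs, 30 on chromosome 5 and 14 elsewhere, over a span of 21.03 Mb, were not all tested or not all kept under several alternatives. With missing calls in at most 10% of columns, 4319 SNPs were tested, and only 25 of the 44 were among them. All 25 of these passed and no other SNP did, with 5 outside chromosome 5. Without a limit on missing calls, 112689 SNPs were tested, 32 passed (30 of the 44 among them) and 8 lay outside chromosome 5. With heterozygous calls as missing, 16 passed, 13 on chromosome 5 and 3 elsewhere, and the difference at S9_14147427 reversed to 0.0444 copies, since all 39 G plants with its minor allele were heterozygous. S2_77482975, S2_99681021, S2_168618816, S5_3982960, S5_11701300, S5_11794726, S5_23097599, S5_23634288 and S5_25010091 also lost the call there, with the same sign. In well-called plants alone, 22 passed, 18 on chromosome 5 and 4 elsewhere, over 13.82 Mb, and S5_45647571 differed by 0.00111 copies. In plants with few calls alone, 15 K and 15 G, 1 passed, 0 on chromosome 5 and 1 elsewhere; S2_195281745, S5_43813578 and S5_45345022 changed sign to -0.333, -0.222 and 0.168 copies. Without the plants far from the others, S5_10677653 changed sign to -0.0183 copies, and S14_6782296 passed (adjusted p = 0.0193, exact permutation test). Benjamini-Yekutieli and Bonferroni adjustments left 9 and 8 SNPs outside chromosome 5. With 1 SNP per 1 kb, 14 of 3274 passed, 10 on chromosome 5 and 4 elsewhere. These 14 were the only ones of the 44 still tested, and S9_14147427 was not the SNP kept in its place. The cause of these shifts was not tested. The named SNPs were followed only where heterozygous calls or the plants used changed, or plants were permuted within calling classes. At the 21 named SNPs that passed, these alternatives kept the call in 107 cases, lost it with the same sign in 39 and reversed it in 1. The other alternatives, Bonferroni adjustment among them, are not in this tally. Depth is unknown, so no limit from depth could be computed. No paired analysis was possible because each plant is 1 merged column and plates carry no pairing of K with G plants.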

Other observations

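Of the 2 pairs of plants closest to each other, 1 held a K and a G plant. PaPe52 and PaPe76, both K, differed by a mean of 0.353 copies per SNP called in both, under the limit of 0.540 for close pairs (6 median absolute deviations below the median of all pairs), and PaPe89 (K) and PaPe63 (G) differed by 0.212 copies. By their mean distance, PaPe6, PaPe52, PaPe76 and PaPe89 (K) and PaPe63 (G) lay over 6 such deviations above the median of plants with a like share of calls. With 1 plant of each close pair left out, 46 SNPs passed, all 44 among them, and chromosome 14 then held a passing SNP, S14_6782296 (adjusted p = 0.0203, exact permutation test).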
